A study of Arabidopsis thaliana with 20 samples.

Results

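Open chromatin was followed at 10 genes of jasmonate signalling, out of 27444 nuclear protein-coding genes of Arabidopsis thaliana. They are the JAZ repressor genes JAZ1 (AT1G19180), JAZ2 (AT1G74950), JAZ3 (AT3G17860), JAZ5 (AT1G17380), JAZ6 (AT1G72450), JAZ7 (AT2G34600), JAZ8 (AT1G30135), JAZ9 (AT1G70700) and JAZ10 (AT5G13220), and LOX2 (AT3G45140), a lipoxygenase gene of the wound response. The genes were taken by locus, as members of 1 hormone pathway, from a choice made with earlier results of these data known. Each was examined over its annotated span and the 1000 bp upstream of its start. DNase I cuts DNA where chromatin is accessible; DNase I-seq sequences the short fragments so released, and the deposited lists give the peaks of such fragments. All libraries came from whole 7-day-old Col-0 seedlings that carry the transgenes UBQ10:NTF and ACT2:birA, a nuclear tag and a biotin ligase that let nuclei be captured on biotin (the INTACT method). In the light series, seedlings grown in darkness were taken directly (dark), or first moved to light for 30 min or 3 h or to the day and night cycle for 24 h (24 h light). In the other series, seedlings grown in a cycle of 16 h of light at 22 °C and 8 h of darkness at 20 °C (LD) were left untreated (LD control), lightly sprayed with 0.5% ethanol and left for 3 h (spray control), or heated for 30 min at 45 °C (heat shock). Each of these 7 conditions was represented by 1 library, listed as 2 samples whose peak files were identical. No difference between conditions therefore has a replicate check, and no p-value is given.

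Jasmonates are lipid hormones made after wounding, insect attack and many other stresses. In the resting state JAZ proteins bind MYC2 and related transcription factors and recruit the adaptor NINJA and the corepressor TOPLESS. When the active hormone, jasmonoyl-isoleucine, joins a JAZ protein to the F-box protein COI1, the JAZ protein is degraded and the MYC factors act. The JAZ genes are themselves MYC targets, so they form a negative feedback on the pathway. LOX2 is a plastid enzyme that oxygenates linolenic acid at the start of jasmonate synthesis in leaves, and its transcript is a common marker of the jasmonate response.

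The sequences below are a selection of the peaks described in the results. They are given 5′ to 3′ on the strand of the gene, from the RefSeq assembly TAIR10.1, and end before the annotated gene start. Capitals mark CACGTG (the G-box, which MYC2 binds), CACATG and AACGTG (G-box variants that MYC2 also binds), GCCGCC (the core bound by ERF factors) and TTGAC (the core of the W-box, bound by WRKY factors), each searched on both strands. Read from the other strand, TTGAC is GTCAA and AACGTG is CACGTT. The LOX2 peaks were listed in all LD-grown seedlings and in none of the light series. The 2 JAZ8 peaks lay at different places in the light series and in treated LD-grown seedlings. The JAZ2 spray control peak was listed in that condition alone, and the remaining 3 are upstream peaks listed in every condition. Not every such peak held a marked motif: the upstream peak of JAZ9 and that of JAZ6 at 894 bp held none in any list.
LOX2 distal peak, chr3:16524281-16524430, plus strand: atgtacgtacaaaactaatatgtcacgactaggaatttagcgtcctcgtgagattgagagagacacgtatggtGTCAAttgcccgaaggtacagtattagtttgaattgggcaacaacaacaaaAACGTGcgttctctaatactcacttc
LOX2 start peak, chr3:16525101-16525244, plus strand: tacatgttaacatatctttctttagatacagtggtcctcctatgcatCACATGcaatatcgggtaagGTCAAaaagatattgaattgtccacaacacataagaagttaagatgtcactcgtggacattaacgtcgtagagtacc
JAZ8 light-series peak, chr1:10595961-10596110, plus strand: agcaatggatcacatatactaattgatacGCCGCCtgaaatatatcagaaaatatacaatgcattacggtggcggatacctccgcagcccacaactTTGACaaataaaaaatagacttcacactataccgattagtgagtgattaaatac
JAZ8 start peak, chr1:10596241-10596351, plus strand: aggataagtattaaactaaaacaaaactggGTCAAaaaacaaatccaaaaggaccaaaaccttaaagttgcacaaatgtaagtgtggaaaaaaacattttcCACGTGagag
JAZ2 spray control peak, chr1:28150821-28150970, minus strand: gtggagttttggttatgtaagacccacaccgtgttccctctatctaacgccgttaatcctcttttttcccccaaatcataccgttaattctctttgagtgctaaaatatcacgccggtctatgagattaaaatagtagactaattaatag
JAZ2 start peak, chr1:28150447-28150590, minus strand: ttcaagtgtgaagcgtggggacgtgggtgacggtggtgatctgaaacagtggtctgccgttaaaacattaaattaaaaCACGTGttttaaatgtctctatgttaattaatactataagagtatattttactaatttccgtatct
JAZ3 upstream peak, chr3:6119481-6119630, plus strand: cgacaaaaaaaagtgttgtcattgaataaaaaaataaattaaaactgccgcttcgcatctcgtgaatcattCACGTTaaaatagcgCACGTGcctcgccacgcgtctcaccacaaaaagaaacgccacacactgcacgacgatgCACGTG
JAZ6 upstream peak, chr1:27276941-27277090, minus strand: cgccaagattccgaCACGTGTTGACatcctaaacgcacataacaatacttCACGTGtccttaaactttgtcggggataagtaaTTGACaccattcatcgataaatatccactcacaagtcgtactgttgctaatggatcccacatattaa

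In these 8 sequences the G-box stood at JAZ2, JAZ3, JAZ6 and at the start peak of JAZ8. JAZ3 held 2, with first bases 140 and 82 bp before the gene start, and an AACGTG site whose first base lay 155 bp before it. JAZ6 held 2 as well, 514 and 478 bp before the gene start, and 2 TTGAC sites, one of which directly followed a G-box. The G-box of JAZ8 began 10 bp before its annotated start. JAZ8's other peak had no G-box and held a GCCGCC and a TTGAC site. The start peak of LOX2 held CACATG 97 bp before the start, and its distal peak held AACGTG. The spray control peak of JAZ2 held none of the 5 motifs. A match describes the letters of a window and does not show that a factor was bound.

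Taken as a set, the members held more peaks per gene than all genes in every list. JAZ7 and JAZ8 held no more than 1 in any list. Together the 10 genes held 22 peaks in the dark, 23 after 30 min, 23 after 3 h and 20 after 24 h of light, and 23, 24 and 24 in the LD control, spray control and heat shock lists. This was a mean of 2 to 2.4 peaks per member, against 0.916 to 1.2 per gene over all genes. The members' windows had a median length of 3324 bp and those of all genes 3078 bp. Per kb of window the members held 0.603 to 0.723 peaks and all genes 0.27 to 0.355. At least 1 peak was listed at 8 of 10 members in the dark, where 64.9% of all genes had one. It was listed at 9 of 10 after 30 min (66.5% of all genes), 3 h (71.9%) and 24 h of light (64.4%) and in the LD control (74.2%). It was listed at 10 of 10 in the spray control (72.9%) and heat shock lists (72.7%). With 10 genes, these shares are read as near those of all genes. The members stood higher in the number of peaks per gene, a difference that was not tested.

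**Figure D1:**
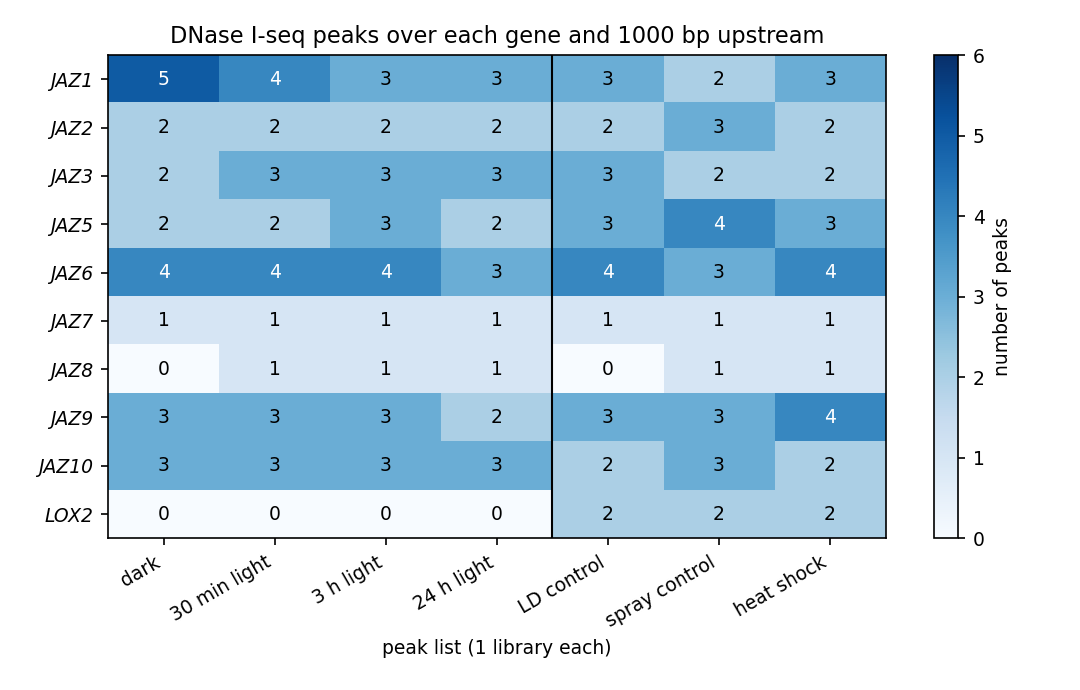
Number of DNase I-seq peaks (colour and digit) over each gene and 1000 bp upstream (rows) in the 7 peak lists (columns); the black line divides the light series on the left from LD-grown seedlings on the right. LOX2 goes from 0 to 2 across the line, JAZ1 ranges from 5 in the dark to 2 in the spray control, and JAZ7 has 1 in every list.

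When overlapping peaks of the 7 lists were merged, the members held 31 open regions. Of these, 17 (54.8%) had a peak in all 7 lists, against 40.3% of the 36051 regions over the windows of all genes. At the other end, 3 (9.68%) were listed in 1 library, against 20.3% of regions over all genes. Every JAZ gene but JAZ8 had a region open in all 7 lists. A peak of any kind in all 7 lists was seen at 57.2% of all genes and at 8 of 10 members, the exceptions being JAZ8 and LOX2.

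**Figure D2:**
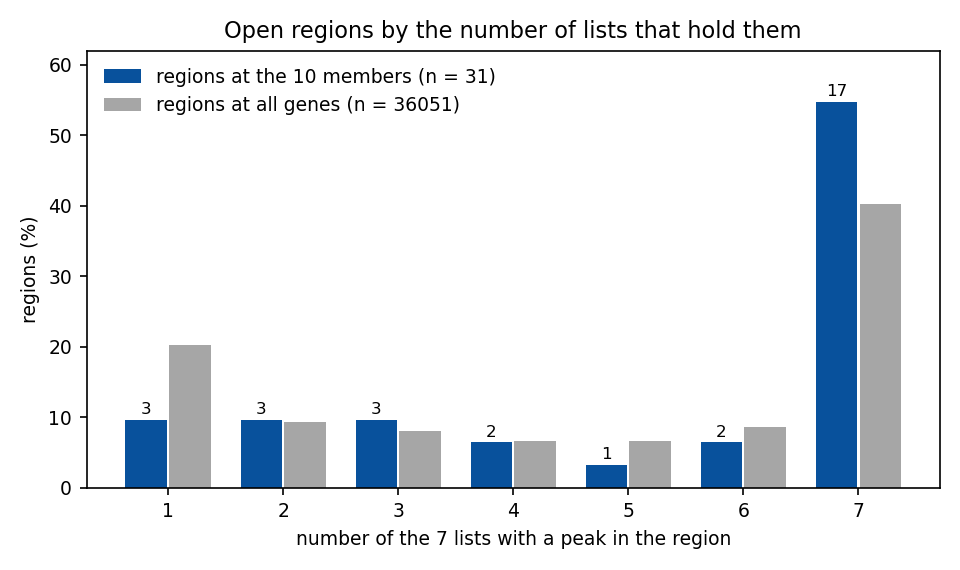
Share of open regions (y axis, %) by the number of the 7 lists with a peak in them (x axis), for the 31 regions at the members (blue, with their number above the bar) and the 36051 regions at all genes (grey). The bar for 7 lists is 54.8% for the members and 40.3% for all genes.

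LOX2 (chr3:16525245-16529352 of TAIR10.1, plus strand) was the member that divided the 2 series. No peak lay over LOX2 or its 1000 bp upstream in the dark or after 30 min, 3 h or 24 h of light. In each of the 3 lists of LD-grown seedlings it held 2 peaks. The start peak had its midpoint 69 bp before the gene start in all 3, with signals of 488, 1208 and 481 in the LD control, spray control and heat shock lists. Signal is the authors' own value per peak and is on a different scale in each list, so it is read here by its percentile, the share of the list's peaks with a signal at or below it. The start peak stood at percentiles 58.4, 59.8 and 57, close to the middle of each list. The distal peak, 889 bp upstream in the LD control and 909 bp in the other 2 lists, had signals of 415, 1274 and 588, at percentiles 49.8, 63.1 and 67.4. In the last 2 lists its midpoint lay within the span of a long non-coding RNA gene, AT3G07045. Neither heat shock nor the spray added or removed a LOX2 peak.

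The pattern of LOX2, no peak in the light series and a peak in all 3 lists of LD-grown seedlings, was shared by 538 genes, or 1.96% of all. It was described after the values of LOX2 had been seen, and among the 51 other listed genes of the jasmonate pathway and 13 marker genes none showed it. In the 4 lists of the light series the nearest peak lay 308 to 408 bp beyond the window, past the 3′ end of the gene. The lists of the light series were also shorter, with 26712 to 31336 nuclear peaks against 32755 to 34637, and their median signal was 148 to 192 against 417 to 1036. When every list was reduced to its 26712 strongest peaks, LOX2 kept 2 peaks in each list of LD-grown seedlings and none in the light series, a pattern then held by 361 genes (1.32%). CAB2 and LHCB2.1, genes of light-harvesting proteins of green leaf, also had no peak in the dark or after 30 min of light. Each had 1 peak after 3 h and after 24 h of light. These peaks stood at percentiles 8.03 and 4.93 for CAB2 and 22.7 and 32.5 for LHCB2.1. RBCS1A, the other marker of green leaf, had 1 peak in the dark and 2 or 3 in the other lists. Of the 13 marker genes of root, guard cell, green leaf and flower, WOX5, PLT1, HT1 and AG had no peak in any list, and a peak at a marker gene does not show its expression. The seedlings are mixtures of tissues, and more cells with an open site and a more open site in each cell cannot be told apart.

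JAZ8 (chr1:10596352-10597341, plus strand) encodes a JAZ protein that lacks a canonical degron and resists hormone-driven degradation. It had no peak in the dark or in the LD control, the 2 reference conditions, and 1 peak in each of the other 5 lists. After 30 min, 3 h and 24 h of light the peak lay at the same place, 316 bp before the gene start, with signals of 101, 114 and 116 (percentiles 23.3, 25 and 35.7). In the spray control and heat shock lists it lay instead 36 bp before the start, across it, with signals of 1199 (percentile 59.4) and 236 (percentile 23). The 2 sites were 130 bp apart, and no list held both. Of these 5 peaks, 4 were in the weaker part of their lists, the spray control peak being the exception. In the 2 lists without a peak the nearest one lay 4600 and 4660 bp beyond the window.

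A pattern of no peak in dark and LD control and a peak in the other 5 lists occurred at 10 of all genes (0.0364%), and was described after the values of JAZ8 had been seen. With 1 library per condition, how often such weak peaks would return in a replicate was not tested. When only the stronger 50% of peaks of each list were counted, the spray control peak was the only one of JAZ8 that was left. A peak gained in both the spray control and the heat shock list against the LD control was found at 4.38% of genes. JAZ8 was the only member among them.

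**Figure D3:**
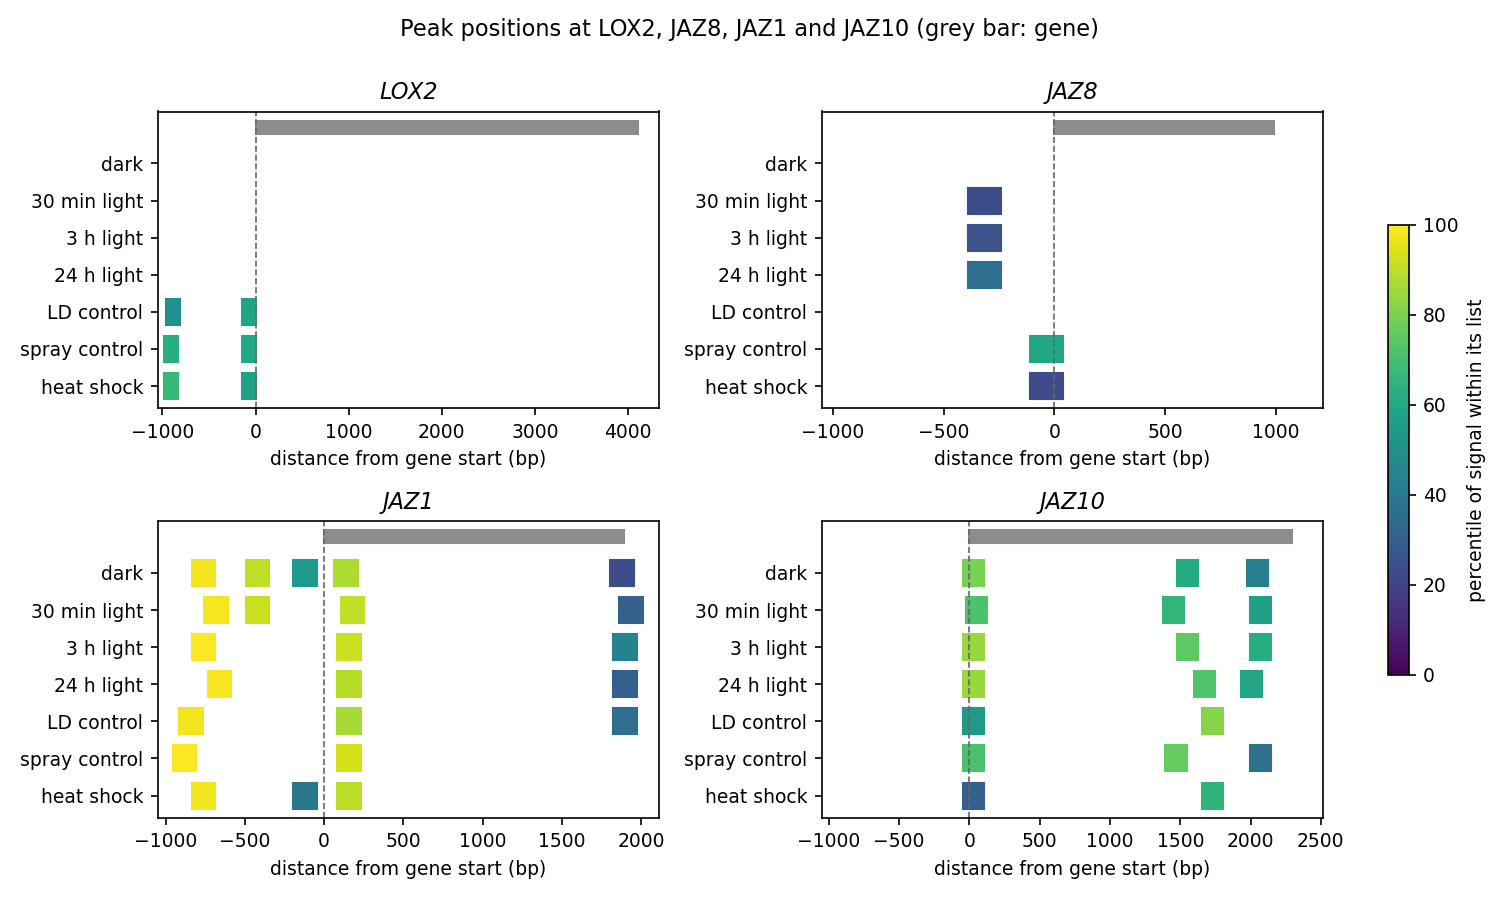
Peaks (boxes, drawn at their width) by distance from the gene start in bp (x axis) in each of the 7 lists (rows) at LOX2, JAZ8, JAZ1 and JAZ10, coloured by the percentile of the signal within its list; the grey bar is the gene and negative distances are upstream. LOX2 has boxes in the lower 3 rows alone, and the JAZ8 box stands at -316 bp in the rows with added light and at -36 bp in the spray control and heat shock rows.

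JAZ1 (chr1:6621777-6623668, plus strand), one of the first JAZ repressors described, varied most in its number of peaks, from 5 in the dark to 2 in the spray control. Open in all lists were 2 regions. The upstream one, centred 661 to 881 bp before the start and partly in the span of the non-coding RNA gene AT1G05473, was among the strongest peaks of each list, at percentiles 97.7 to 99.5. The other, in the 5′ part of the gene 139 to 179 bp after the start, stood at percentiles 86.7 to 93.6. Between them lay 2 regions that were listed in few conditions. A peak 421 bp before the start was present in the dark (signal 383, percentile 89.9) and after 30 min of light (signal 529, percentile 91.8) and in no other list. This was a strong peak in both lists. It was not listed after 3 h and 24 h of light, where the nearest peak lay 190 and 90 bp from it. If a peak within 150 bp is taken as a match, the loss of JAZ1 is still called after 3 h and is no longer called after 24 h.

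The other variable site of JAZ1, 121 bp before its start, was listed in the dark (signal 160, percentile 54.4) and after heat shock (signal 359, percentile 40.2). It was counted as lost after 30 min, 3 h and 24 h of light and as gained in heat shock, with the nearest peak of the other list 130 or 150 bp away in each case. A weaker region at the 3′ end, 1879 to 1979 bp after the start, was listed in all but the heat shock list; it also lies in the upstream window of the neighbouring gene AT1G19190, and the spray control peak there fell outside the JAZ1 window. Peak numbers identical to those of JAZ1 in all 7 lists were found at 1 other gene, VHA-A3 (AT4G39080), a subunit of the vacuolar proton pump. The numbers of KAN (AT5G16560), AT5G23700 and NAC6 (AT5G39610) differed from those of JAZ1 by a sum of 1 peak over the 7 lists, and those of 15 genes by 2.

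JAZ10 (chr5:4218786-4221077, plus strand) is known for splice variants that lose part of the domain COI1 binds. It carried a peak at its start in all lists, with its midpoint 30 or 50 bp downstream. The signals were 277 in the dark, 286, 386 and 313 after 30 min, 3 h and 24 h of light, and 451, 1470 and 285 in the LD control, spray control and heat shock lists. These stood at percentiles 79.5, 71.5, 84.5, 84.5, 54.2, 71.3 and 30.2. Within its own list the start peak was therefore highest in the light series and lowest after heat shock, though the lists differ in length and such ranks show no change. A region 1450 to 1730 bp after the start was listed in all 7 libraries, but its peaks lay at different points within a stretch of 430 bp. In the LD control and heat shock lists the peak was at 1730 bp, and in the dark, the spray control and the first 3 h of light it was at 1450 to 1550 bp. A further region in the 3′ UTR, 2010 to 2070 bp after the start, was listed in the light series and the spray control and missing in the LD control and heat shock lists.

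JAZ7, a short gene of 923 bp, was the only member with the same number of peaks in all lists, namely 1. A constant number was common, at 42.7% of all genes, which includes genes with no peak in any list. The JAZ7 peak lay across its start, 26 to 66 bp downstream. Its signals were 190 in the dark, 270, 331 and 191 after 30 min, 3 h and 24 h of light, and 411, 1595 and 304 in the LD control, spray control and heat shock lists, at percentiles 63, 69.1, 78, 63.7, 49.2, 75.6 and 32.7. As at JAZ10, the heat shock list had the lowest percentile of the 7, and such ranks show no change. Other members went both ways. The JAZ2 peak 70 bp before its start was also lowest in heat shock, at 56.9. The JAZ9 upstream peak and the JAZ6 peak at 894 bp were highest there, at 93.5 and 90.5.

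JAZ6 and JAZ2 also had strong upstream peaks. At JAZ6 the upstream peak with the 2 G-boxes shown above stood at percentiles 93.1 in the dark, 90.4, 97.3 and 93.3 after 30 min, 3 h and 24 h of light, and 98.5, 99.4 and 99.1 in the LD control, spray control and heat shock lists. It lies in the span of the non-coding RNA gene AT1G09307, which reaches into the JAZ6 window, so the peak cannot be assigned to JAZ6 alone. A second upstream region at 894 bp and one in the 5′ UTR were also in all lists. A region past the 3′ end, in the span of the neighbour AT1G72440, had a peak in all lists as well, and in the 24 h and spray control lists it fell outside the JAZ6 window. JAZ2 had 2 peaks in all lists, at 650 to 750 bp (percentiles 86.2 to 96.5) and at 70 bp before its start (percentiles 56.9 to 72.8). In the spray control alone it held a further peak 450 bp upstream, with a signal of 1807 at percentile 81.3; of the 3 member peaks listed in 1 library alone it had the highest percentile.

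JAZ3, JAZ5 and JAZ9 each had peaks listed in all 7 libraries and others listed in some. JAZ3 held its upstream peak in all lists at percentiles 78.8 to 90.8. It held the 2 G-boxes shown above in every list but heat shock, where it lay 171 bp upstream and held 1. A second peak 711 to 811 bp upstream was listed after 30 min (signal 319), 3 h (223) and 24 h of light (288) and in the LD control (406). The dark, spray control and heat shock lists had no peak there. In all 3 a peak lay just outside the window, 130 bp from the site of the 3 h and LD control peaks, so the gains of this site in light and its losses have a neighbouring peak beside them. Another region of JAZ3, inside the gene, was listed in all 7 libraries, but with midpoints from 849 to 1049 bp, and where 2 such peaks did not overlap they were counted as one gained and one lost. JAZ5 held an upstream peak and a peak past its 3′ end, in the span of the neighbour AT1G17370, in all lists. Its coding sequence carried a weak peak after 3 h of light (percentile 20.4) and in the LD control (19.3), the spray control (38) and heat shock lists (13.6). The spray control list alone had a peak in its 5′ UTR (percentile 65.6). JAZ9 had an upstream peak at percentiles 84.6 to 93.5 and an intronic peak in all lists. Its 5′ UTR peak was listed in all but the 24 h light list, and a peak in its coding sequence was listed after heat shock alone, at percentile 4.84 of that list.

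**Figure D4:**
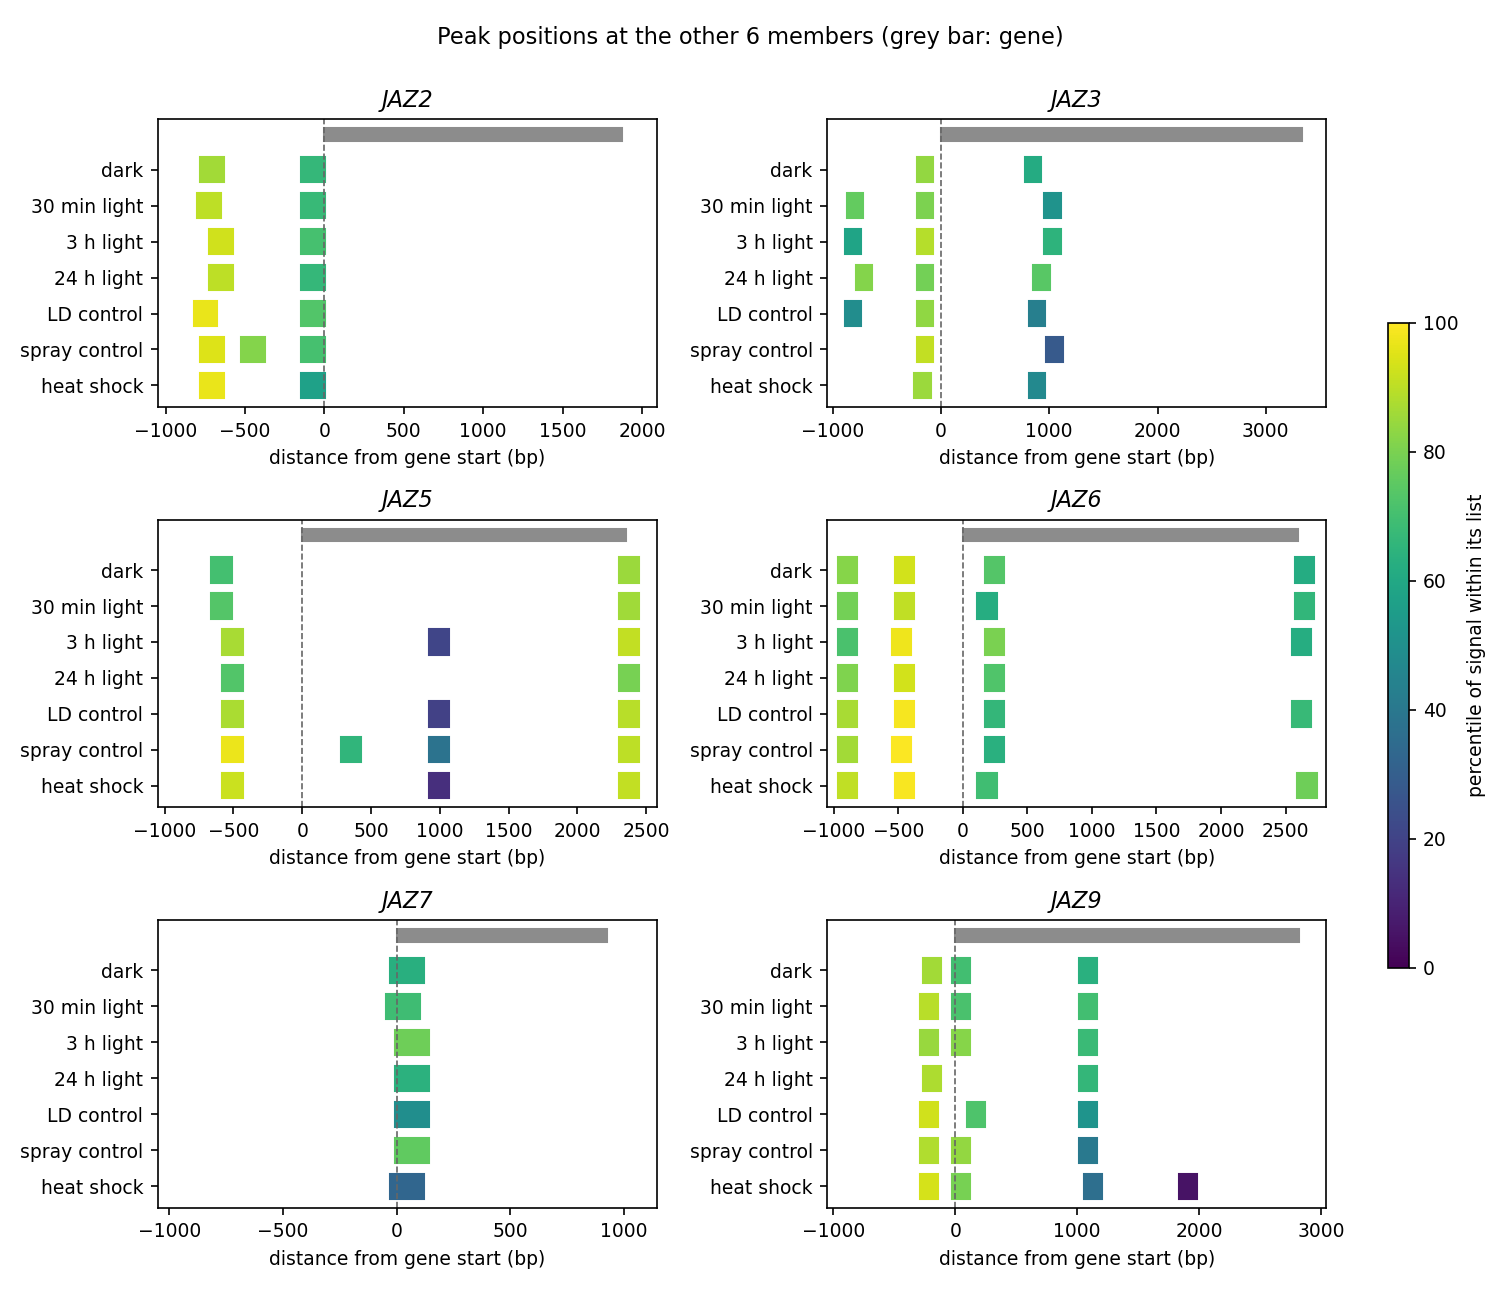
Peaks by distance from the gene start in bp (x axis) in each of the 7 lists (rows) at JAZ2, JAZ3, JAZ5, JAZ6, JAZ7 and JAZ9, drawn and coloured as in the map of LOX2, JAZ8, JAZ1 and JAZ10. Most boxes form columns through all 7 rows, and single boxes mark the spray control peaks of JAZ2 at -450 bp and JAZ5 at 355 bp and the heat shock peak of JAZ9 at 1907 bp.

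The comparisons set the peaks listed after each treatment beside those of its reference list. Gained here means listed in the treated library with no overlapping peak in the reference, and lost means the reverse. Against the LD control, heat shock gained a peak at 3 of 10 members (JAZ1, JAZ8 and JAZ9), against 12.5% of all genes, and lost one at 2 (JAZ1 and JAZ3), against 22.2%. The spray control gained one at 5 members (JAZ2, JAZ3, JAZ5, JAZ8 and JAZ10), against 16.8% of all genes, and lost one at 2 (JAZ3 and JAZ10), against 18.5%. The members hold more peaks than other genes and so have more that can change. Counted over peaks, 12.5% of the members' 24 heat shock peaks were gained, against 15.1% of all peaks of that list, and 25% of their 24 spray control peaks, against 16.3%. Of the members' 23 LD control peaks, 8.7% were lost in heat shock, against 19.7% of all peaks, and 13% in the spray control, against 18.4%. For heat shock the share of gained peaks was thus near the background, and for the spray it was 6 peaks of 24. Of these 6, the peak at JAZ3 lay 10 bp and 1 of the 2 at JAZ10 lay 110 bp from a peak of the LD control, and those at JAZ2, JAZ5, JAZ8 and the 3′ UTR of JAZ10 lay 150 bp or farther from one.

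Against the dark list, 30 min of light gained a peak at JAZ3 and JAZ8 (background 9.52% of all genes) and lost one at JAZ1 and JAZ3 (8.26%). After 3 h of light JAZ3, JAZ5 and JAZ8 gained one (17.6%) and JAZ1 and JAZ3 lost one (8.87%). After 24 h JAZ3 and JAZ8 gained one (9.93%) and JAZ1 and JAZ9 lost one (14.6%). The 24 h list had a peak 90 bp from the lost 5′ UTR peak of JAZ9. These 3 comparisons share the dark library, so the return of the same names is no independent support. Over peaks, 13%, 17.4% and 10% of the members' peaks were gained at the 3 times, against 10.5%, 18.7% and 11.8% of all peaks. The lost shares were 9.09%, 13.6% and 13.6%, against 10.8%, 11.9% and 18.5%. Counted over peaks, no gained or lost share of the members in the light series stood far from that of all peaks.

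**Figure D5:**
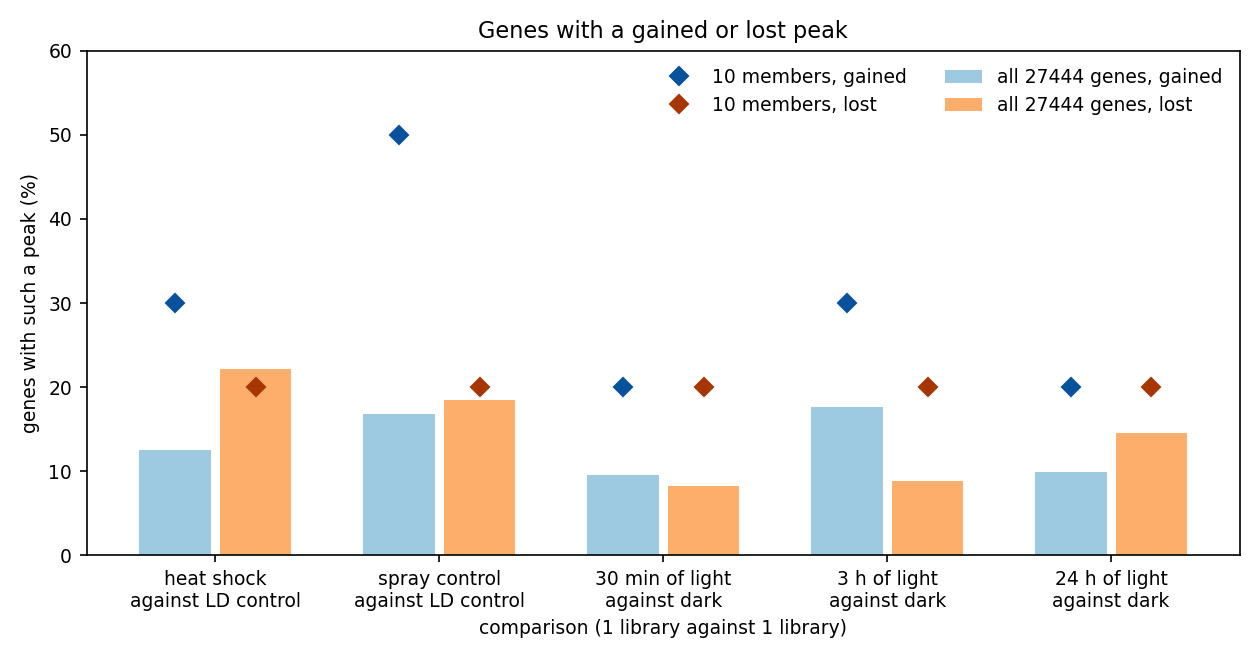
Share of genes (y axis, %) with a gained (blue) or lost (orange) peak over the gene and 1000 bp upstream in the 5 comparisons (x axis), each of 1 library against 1 library; bars give all 27444 genes and diamonds the 10 members. The diamond farthest from its bar is that for peaks gained in the spray control, 5 of 10 members against 16.8% of all genes.

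The other genes of the pathway were read by the same rule from lists of other TIFY family genes (7), jasmonate synthesis (15), signalling (10), hormone turnover (10) and downstream targets (9). In the spray control, gained peaks lay at 21 of these 51 genes, against 16.8% of all genes. By list they lay at 7 of 15 synthesis, 6 of 10 signalling, 6 of 10 turnover, 1 of 9 target and 1 of 7 other TIFY genes. The 51 genes held 1.84 peaks per gene in that list, against 1.19 over all genes. Over peaks the gains were 26 of 94, or 27.7%, against the 16.3% of all peaks given above. The spray control lost a peak at 19 of the 51 (18.5% of all genes). Over peaks this was 24.7% against 18.4% of all peaks, so both shares were above the background there. Some of the gained peaks were weak, as at ST2A (percentile 3.59) and COI1 (6.17). Others lay near an LD control peak, 30 bp away for a CYP94B1 peak and 50 bp for that of TPL. The OPR3 peak, at percentile 81.6, was 490 bp from one. The shares were not recounted without weak or neighbouring peaks. Heat shock gained a peak at 11 (13.9% of peaks, against 15.1%) and lost one at 16 (24.7%, against 19.7%). After 30 min of light 9 of the 51 gained one (12% of peaks, against 10.5%) and 7 lost one (9.33%, against 10.8%). After 3 h, 19 gained one (23.1%, against 18.7%) and 6 lost one (8%, against 11.9%). After 24 h, 9 gained one (13.3%, against 11.8%) and 10 lost one (14.7%, against 18.5%). None of these differences was tested.

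OPR3, the reductase that acts on the jasmonate precursor in peroxisomes, had a peak 139 bp after its start in the lists of 30 min (signal 129), 3 h (332) and 24 h of light (159), spray control (1820) and heat shock (406). That peak was absent from the dark and the LD control, the same division of the lists as at JAZ8, though OPR3 had other peaks in both. AOC4, an allene oxide cyclase, had a start peak in the spray control (percentile 44.2) and heat shock lists (23.6). It was also listed in the dark and after 30 min and 3 h of light, and not after 24 h of light or in the LD control. At the promoter of TPL, which encodes the corepressor TOPLESS, peaks at the 98.9th percentile of the LD control and the 99.8th of the spray control lay 50 bp apart, which was counted as one lost and one gained. MYC2, the master transcription factor of the pathway, lost a peak 509 bp upstream in the spray control that was present in the other 6 lists. JAM1 and JAM2, bHLH repressors that oppose MYC2, gained upstream peaks in the spray control, at percentiles 79.2 and 53.9. These lay 50 and 150 bp from a peak of the LD control. The JAM1 peak was also listed after 3 h of light, and the JAM2 peak after 30 min and 3 h.

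Among the turnover genes, which oxidise or otherwise inactivate the hormone, CYP94B1 gained a start peak after heat shock (percentile 28.8) that was also in the 4 lists of the light series. AT3G11180 had a peak 281 to 301 bp upstream after 30 min, 3 h and 24 h of light, at percentiles 10.7, 7.1 and 5.64, and no peak in the other 4 lists. Among the targets, PDF1.2, TAT3 and ORA59 kept 1 peak in all lists, while VSP1 and THI2.1 had none in any. VSP2, a vegetative storage protein gene that wounding induces, had no peak in the dark, 30 min and 24 h lists. It had 2 after 3 h of light and in the LD control, and 1 in each of the spray control and heat shock lists. The 2 peaks after 3 h were among the weakest of that list, at percentiles 0.823 and 0.0702. CORI3 had 1 peak, in the LD control alone (percentile 15.6). No other lipoxygenase gene of the synthesis list shared the division of LOX2: LOX3, LOX4, LOX5 and LOX6 had peaks in all 7 lists and LOX1 in none.

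Motifs were counted over the promoters, from 250 bp before to 50 bp after each start. The G-box CACGTG occurred at 4 of 10 members (JAZ2, JAZ3, JAZ7 and JAZ8), against 7.68% of 27443 promoters. CACATG occurred at 3 (JAZ9, JAZ10 and LOX2), against 12.9%, and AACGTG at 3 (JAZ3, JAZ5 and JAZ6), against 8.95%. At least 1 of these 3 motifs was found in this window at 9 of 10 members, JAZ1 being the exception, and at 26.4% of all promoters. GCCGCC occurred at none of the 10 members, against 2.57% of promoters, and TTGAC at 5 of 10, against 50.5%. Over the members' peaks of the LD control, CACGTG lay in 5 of 23 (21.7%, against 9.52% of all peaks), CACATG in 26.1% (against 12.5%) and AACGTG in 34.8% (against 6.37%). TTGAC lay in 34.8%, against 35.4%. In the dark the shares were 22.7% for CACGTG (against 9.99%), 27.3% for CACATG (against 11.8%), 22.7% for AACGTG (against 7.03%) and 36.4% for TTGAC (against 37.9%). Several peaks of the same gene are counted separately, and every LD control peak of JAZ1 held AACGTG. Those at the 3′ ends of JAZ1 and JAZ5, also with AACGTG, lie in the windows of neighbouring genes too. These counts describe few genes, 9 of which are of 1 family with shared ancestry, and no test was made of them.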

How the data were processed

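DNase I-seq peak lists of 7 libraries were analysed; 6 RNA-seq samples of the series were not analysed here. CASAVA 1.8.2, Bowtie 0.12.7 and the build TAIR10 are named per the submitters' processing notes. How peaks were called, at which threshold and from how many reads is not given in the sources used here. According to the series text, some samples were subsampled to equal depth, and the labels do not mark them. Such steps can add or remove weak peaks. Each deposited list has 10 columns; more than 99% of its peaks are 150 bp wide. The deposited signal column was used within a list only. The authors' −log10 p column ends at 324 and ranked nothing. Lists held 26712 to 34637 nuclear peaks, and 474 organelle peaks of the spray control were left out.

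Genes came from RefSeq's annotation of TAIR10.1. Between 36.7% and 42% of peak midpoints lay near a gene start, and 9.75% to 10% after a shift by 5000 bp. Peaks counted when they overlapped a window or a peak of the other list by at least 1 bp. One sequence is not reported here. Peaks were placed by midpoint, and coordinates are 1-based. The members and the gene lists were chosen with earlier results of these data known. From each list, up to 3 genes per comparison and direction with the strongest gained or lost peak could be named; other names were chosen after their values were seen. Symbols of 6 listed genes are not in RefSeq, and such genes are given by locus. The overlap step was tested on simulated peaks. Python 3.11.15, NumPy 2.4.6 and Matplotlib 3.10.9 were used. Alternatives covered the window, overlap, signal and list length.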

Additional observations from a re-analysis of the deposited data

How the results depend on the processing

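Of 97 alternative values for the peak totals and the counts of members with a gained or lost peak, 68 stayed within 1.5 times the value given. Lists of equal length, counting by midpoint and 2000 bp of upstream sequence kept all of theirs within that range. The gene span alone held 13, 13, 14 and 11 member peaks from dark to 24 h of light and 14, 15 and 15 in the LD control, spray control and heat shock lists. It left 1 member with a lost peak in heat shock, and 1 gained and 1 lost after 30 min, 1 lost after 3 h, and 0 gained and 1 lost after 24 h of light. Counting gained or lost peaks only in the upper 50% by signal of their own list left 0 gained and 0 lost in heat shock, 1 lost in the spray control, and 1 gained after each of 30 min, 3 h and 24 h of light. With 75 bp of overlap needed for a shared peak, members with a lost peak in the spray control became 5, those gained after 30 min 4, and those gained and lost after 24 h 5 and 5. A further 2 alternatives were chosen after seeing the data. With no peak of the other list allowed within 150 bp, lost members became 1 in heat shock, 0 in the spray control, and 1, 1 and 0 after 30 min, 3 h and 24 h of light. With the LD and spray control lists pooled, 1 member lost a peak in heat shock. Counts within range could still change in name. Pooling dropped JAZ8 from the heat shock gains and left JAZ1 and JAZ9. Lists of equal length dropped JAZ9 and left JAZ1 and JAZ8. No paired analysis was possible because each condition has 1 library and no result comes from a test. Leaving out a replicate was not possible for the same reason. The depth of the libraries is unknown, so an absent peak is a peak not listed at that depth.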
